A study of Mus musculus with 2 samples.

Results

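The genes described here are 10 AP-1 and immediate early genes. They comprise the Fos family (*Fos*, *Fosb*, *Fosl1* and *Fosl2*), the Jun family (*Jun*, *Junb* and *Jund*), and *Egr1*, *Ier3* and *Atf3*. They were picked by symbol from the 33696 genes that both feature files list, each symbol occurred once in each file, and all 10 had UMIs in both libraries. Transcripts of single cells (scRNA-seq) were counted in neonatal ICR mice, an outbred strain, whose hindlimb digits 2 and 4 had been cut through the middle phalanx (P2) at postnatal day 3. At postnatal day 7 each wound received an agarose bead carrying either FGF8, a fibroblast growth factor (500 ng/µl), or bovine serum albumin (BSA, 0.1%) as the control. The tissue was taken 24 h after the bead, on postnatal day 8. Each condition was 1 library, made from 20 pooled digits of 5 male and female mice, so both groups shared the amputation, the bead and the pooling, and the FGF8 pool is likely to hold digits that did not respond. The epithelium was removed, the tissue distal to the P2 stump was dissociated with Liberase at 37 °C for 4 h, and cells were captured with 10x 3′ chemistry.

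AP-1 is a dimeric transcription factor made of 1 Fos family and 1 Jun family protein, or of Jun proteins alone. Most of its genes, together with *Egr1*, *Ier3* and *Atf3*, are immediate early genes. Growth factors acting through the ERK pathway, wounding, and cell stress switch these on without new protein synthesis, and most of their messages decay quickly. *Fosl1*, which encodes FRA1, is itself raised by AP-1 and stays on longer under sustained ERK signaling, and AP-1 is known to act on matrix metalloproteinase genes in fibroblasts. Enzymatic dissociation of tissue is also known to switch on many immediate early genes, and both libraries went through the same dissociation.

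The FGF8 library held 124889213 UMIs in 7249 barcodes and the BSA library 67739460 in 3703. UMIs count transcripts once each, and 6715 and 3252 barcodes passed the filters, of which 4 were shared between the libraries. Clusters were named from marker lists, and "fibroblast-like" and similar names mean only that those markers lead the cluster. Fibroblast-like cells, led by *Mfap4*, *Mfap5* and *Dpt*, numbered 3572 with FGF8 and 1855 with BSA, with medians of 17341 and 18810.0 UMIs. Levels are given as a gene's UMIs per 1000000 UMIs of the cells named (CPM). Reads came from the 3′ ends of transcripts, so a level does not scale with gene length. Libraries were compared as log2 ratios of CPM, FGF8 over BSA, among genes with at least 10 UMIs in that cell type. With 1 library per condition there was no replicate check and no test, and the 95% intervals cover only the error of counting UMIs. What differs between the libraries may come from the treatment, the mice, the dissection or the library itself, which cannot be told apart. A ratio above 1 or below −1 is called past the fold. Cells could be called female by *Xist* or male by 4 Y-linked genes, and the female share of these was 24.6% with FGF8 and 79.3% with BSA, so ratios are also given within each sex. Called female and male were 1151 and 3523 cells with FGF8, and 1943 and 507 with BSA. Cells with UMIs of both kinds or of neither were left uncalled and count only in values over both sexes together. A ratio over all cells can lie outside those of both sexes.

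Positions are from GENCODE vM39 on GRCm39, the build of the counts. *Fos* lies at chr12:85520658-85524047 on the plus strand, *Fosb* at chr7:19036621-19043976 on the minus strand, *Fosl1* at chr19:5497575-5505974 on the plus strand and *Fosl2* at chr5:32292707-32315186 on the plus strand. *Jun* lies at chr4:94937271-94940459 on the minus strand, *Junb* at chr8:85701113-85705359 on the minus strand and *Jund* at chr8:71151599-71153265 on the plus strand, and the main transcript of each has 1 exon, whereas those of the 4 Fos family genes have 4 exons. *Ier3* lies at chr17:36132568-36133815 on the plus strand and *Atf3* at chr1:190902493-190950241 on the minus strand. *Fosl1*, *Jun*, *Junb* and *Jund* each overlap a counted gene on the other strand (*Ccdc85b*, *Junos*, *Prdx2* and *Gm11175*), from which strand-aware counting separates their reads.

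Immediate early promoters hold short sites for the factors that signaling reaches first. Stretches are shown from 4 of the 5 members found with such a site, all within 100 bases of the start. Promoters of 8 members were present in the RefSeq table, built on GRCm38.p6, and the printed stretches were placed on GRCm39 by an exact match of their letters. The 250 bases before the start were searched on both strands for the cyclic AMP response element (TGACGTCA), its core (TGACGT, which the full element contains), the AP-1 site (TGACTCA), the Jun and ATF site (TGACATCA), the EGR motif (GCGNGGGCG) and the CArG box of serum response factor. Each stretch below is the 100 bases before the start, 5′ to 3′ on the gene's strand, with the match in capitals. *Fos* (chr12:85520564-85520663) and *Atf3* (chr1:190915531-190915630, at a start inside the gene as GENCODE draws it) hold the core, found in 6.47% of the 32851 promoters of the table. *Fosb* (chr7:19043971-19044070) holds an EGR motif (4.70% of promoters), and *Jun* (chr4:94940460-94940559) the Jun and ATF site (2.93%).
Fos: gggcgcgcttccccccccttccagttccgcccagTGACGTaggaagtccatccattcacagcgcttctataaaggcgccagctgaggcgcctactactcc
Fosb: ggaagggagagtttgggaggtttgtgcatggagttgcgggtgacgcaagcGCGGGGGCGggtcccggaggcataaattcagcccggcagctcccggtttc
Jun: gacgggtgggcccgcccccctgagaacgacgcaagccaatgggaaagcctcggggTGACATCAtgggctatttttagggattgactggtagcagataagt
Atf3: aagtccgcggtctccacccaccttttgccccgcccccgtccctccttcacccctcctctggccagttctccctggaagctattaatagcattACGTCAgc
A further EGR motif lay 79 bases before the start of *Fosl2*. In these windows no full cyclic AMP response element (1.55% of promoters), AP-1 site (4.46%) or CArG box (1.47%) was matched in any of the 8 members, which says only that these letters are not in these windows. A match is a description of letters and not of binding.

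In fibroblast-like cells *Fosl1* and *Ier3* were past the fold in the FGF8 library, *Fosb*, *Jun*, *Junb* and *Atf3* were higher by less than that, *Fos* and *Fosl2* were close to level, *Jund* was lower, and *Egr1* was slightly lower in summed UMIs. Of the 10 members 2 had a log2 ratio above 1, against 6.70% of the 20102 genes tested, and 0 had one below −1, against 5.05%. In direction, 8 of 10 members were above 0, against 44.2% of all genes. The median of the members was 0.42, and that of all genes −0.07. The count of members above 1 was 0 at the clustering resolutions 0.1 and 0.2. At 0.1 a cluster led by *Prg4*, *Ptgis* and *Timp1* (1576 FGF8 and 613 BSA cells) carried no name. Nor did a cluster of few UMIs (909 and 493), so neither counted as fibroblast-like, and at 0.2 it was likewise. The count was also 0 with a fold that adds 1 to each library's mean of normalized counts, which draws ratios of low levels toward 0. Under that fold 0.055% of genes were past the fold, *Fosl1* was at 0.31 and *Ier3* at 0.90. The plot of levels in fibroblast-like cells sets the libraries side by side.

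**Figure D1:**
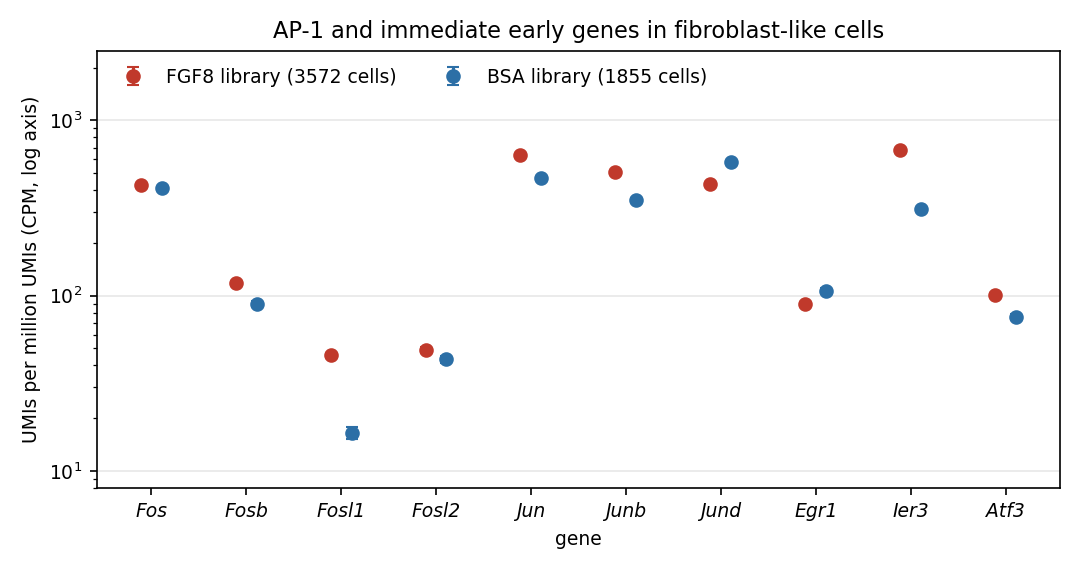
CPM (log axis) of each gene in fibroblast-like cells of the FGF8 library (red, 3572 cells) and the BSA library (blue, 1855 cells); bars are exact Poisson 95% intervals, mostly smaller than the points. The points of *Fosl1* and *Ier3* lie farthest apart, with FGF8 above, and those of *Fos* and *Fosl2* lie closest together.

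Among Fos family genes, *Fosl1* showed the largest ratio. It had 3188 UMIs in the FGF8 library, 45.6 CPM, and 587 in the BSA library, 16.4 CPM, a log2 ratio of 1.47 (1.344 to 1.601). *Fos*, the founding member, whose protein activates transcription with Jun partners, was at 427 CPM with FGF8 and 409.9 with BSA, a log2 ratio of 0.06 (0.03 to 0.09). *Fosb*, a close relative of *Fos*, was at 119 and 89.6 CPM, with a log2 ratio of 0.41 (0.35 to 0.47). *Fosl2*, which encodes FRA2, was at 48.9 and 43.3 CPM, with a log2 ratio of 0.18 (0.09 to 0.26). *Fosl1* was thus the least abundant family member with BSA and close to *Fosl2* with FGF8.

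The Jun family split by member. *Jun* was at 633 CPM with FGF8 and 470.1 with BSA, a log2 ratio of 0.43 (0.40 to 0.45), and *Junb*, a Jun protein that can restrain or replace *Jun*, was at 506 and 354 CPM, a log2 ratio of 0.52 (0.49 to 0.55). *Jund*, the member that resting cells express most steadily, was at 434 CPM with FGF8 and 580.3 with BSA, a log2 ratio of −0.42 (−0.44 to −0.39). In the BSA library *Jund* had the highest level of the 3, and in the FGF8 library the lowest.

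The remaining members were a zinc finger factor, a survival gene and a stress-responsive factor. *Egr1*, an early target of ERK and serum response factor, was at 90.1 CPM with FGF8 and 107 with BSA, a log2 ratio of −0.25 (−0.30 to −0.19). That direction was not stable: the ratio was above 0 in 8 of 18 alternatives, at 0.16 when each cell was weighted equally. *Ier3*, which is known to prolong ERK activity and protect from cell death, was at 682 and 311 CPM, a log2 ratio of 1.13 (1.10 to 1.16). It had the highest level of the 10 genes in the FGF8 library, while in the BSA library *Jund*, *Jun*, *Fos* and *Junb* were above it. *Atf3*, a bZIP factor of stressed and injured cells that can pair with Jun proteins, was at 101 and 75.2 CPM, a log2 ratio of 0.43 (0.37 to 0.50).

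The makeup of each family differed between the libraries too. *Fosl1* gave 7.12% of Fos family UMIs in fibroblast-like cells of the FGF8 library (exact binomial interval 6.88 to 7.36%) and 2.94% in the BSA library (2.71 to 3.18%). *Fos* gave 66.7% and 73.3%, *Fosb* 18.5% and 16.02%, and *Fosl2* 7.64% and 7.74%. *Jund* gave 27.6% of Jun family UMIs with FGF8 and 41.3% with BSA, and *Jun* gave 40.2% and 33.5% and *Junb* 32.2% and 25.2%. Other cell types had their own makeup in both libraries. In neutrophil-like cells *Junb* gave 71.4% of Jun family UMIs with FGF8 and 74.3% with BSA, and in keratinocyte-like cells *Fosl1* gave 9.32% and 8.07% of Fos family UMIs. In macrophage-like cells *Fosl1* gave only 1.47% with FGF8 and 0.44% with BSA.

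**Figure D2:**
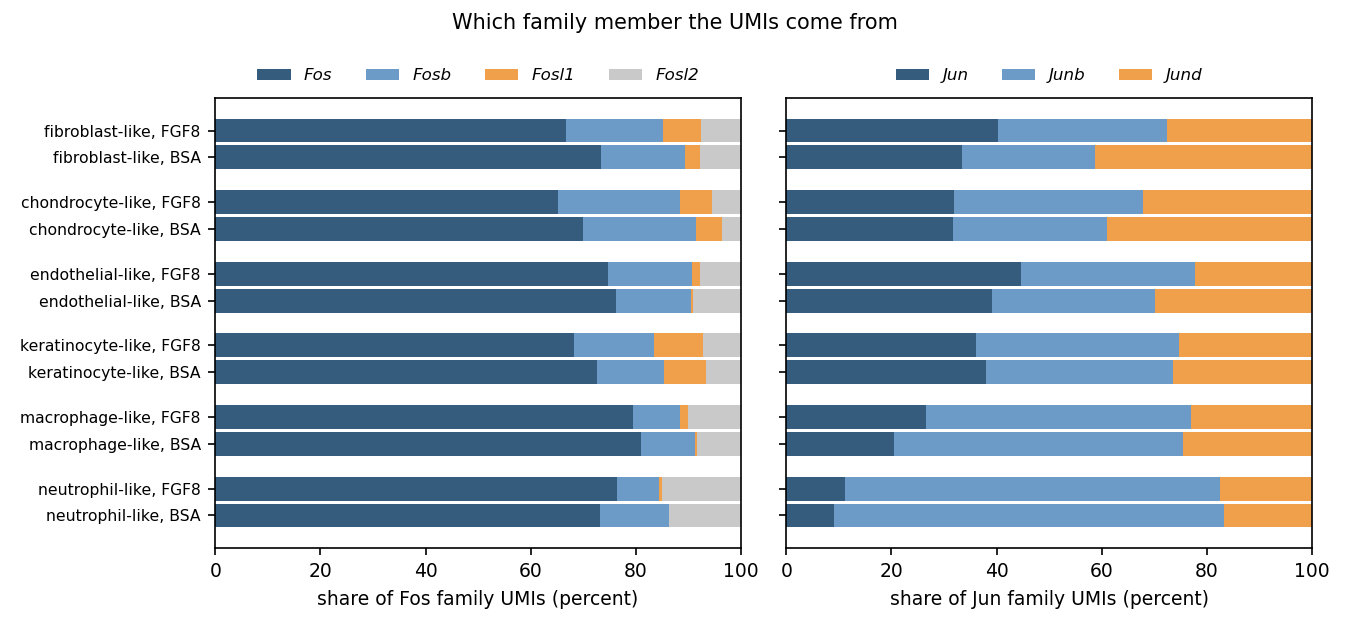
Shares (percent) of Fos family UMIs (left) and Jun family UMIs (right) that came from each member, in 6 cell types of each library. The *Jund* part is larger in the BSA bar of fibroblast-like cells (41.3% against 27.6%), and *Junb* makes up over 70% of both neutrophil-like bars.

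The share of fibroblast-like cells with a UMI was higher with FGF8 for *Fosl1* and *Ier3*. *Fosl1* was found in 31.5% of cells with FGF8 (29.9 to 33.0%) and in 13.4% with BSA (11.9 to 15.1%). After each cell was thinned to 5000 UMIs, which left out 643 FGF8 and 352 BSA cells, the shares were 14.1% and 5.66%, and after thinning to 2000 UMIs they were 5.89% and 1.70%. For comparison, erythroid-like cells, which are not known to use *Fosl1*, had it in 2.11% and 2.41% of cells, at medians of 7010.0 and 18393 UMIs. *Ier3* was found in 70.4% and 51.2% of fibroblast-like cells, and in 58.4% and 36.9% after thinning to 5000 UMIs. *Fos*, whose level hardly differed, was in 60.5% of cells with FGF8 and 50.5% with BSA, 48.2% and 40.5% after thinning. *Jund* was in 87.2% of cells with either bead, 83.9% and 88.4% after thinning, and *Egr1* in 45.0% and 39.6%, 25.1% and 27.1% after thinning. The 10% of fibroblast-like cells richest in *Fos* held 58.9% of its UMIs with FGF8 and 69.4% with BSA, and for *Jund* these shares were 29.6% and 30.5%.

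The fibroblast-like cells fell into 6 subclusters, and their makeup differed between libraries. Subcluster 1, led by *Prg4* (joint lubricin), *Mmp3* (a metalloproteinase) and mitotic genes, held 29.6% of fibroblast-like cells with FGF8 and 15.04% with BSA, with medians of 34087 and 30660.0 UMIs a cell. Subcluster 0 (*Nrg1*, *Sema3a*) held 24.5% and 33.9%, subcluster 3 (*Fmod*, *Comp*, *Mgp*) 11.6% and 16.7%, subcluster 4 (*Lpl*, *Dlk1*) 12.3% and 13.5%, and subcluster 6 (*Corin*, *Alx4*) 2.18% and 1.99%. Subcluster 2, with a median of 1686 UMIs with FGF8 and 1638.5 with BSA, held 19.8% and 18.9%. Taken alone, only subclusters 0 and 4 met the rule for the name fibroblast-like, and subclusters 1, 2, 3 and 6 have no name of their own. All 6 enter the fibroblast-like values. In subcluster 3 the osteoblast list scored highest and the tenocyte list next. Osteoblast markers summed there to 1539 CPM with FGF8 and 843 with BSA, against 219 and 217 in all fibroblast-like cells. Smooth muscle or pericyte markers summed to 4014 and 3108 CPM in subcluster 6, against 514 and 627 in all fibroblast-like cells.

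*Fosl1* and *Ier3* were higher with FGF8 in all 6 subclusters. *Fosl1* was at 65.4 CPM with FGF8 and 33.0 with BSA in subcluster 1, a log2 ratio of 0.99 (0.81 to 1.17). Its log2 ratio was lowest in subcluster 3, at 0.59 (0.31 to 0.87). It was 0.95 in subcluster 0, 1.30 in subcluster 4 and 2.65 in subcluster 2, where the BSA library had 9 UMIs. In subcluster 6 the BSA library had 1 UMI, and the ratio was 3.79 (1.14 to 9.16). *Ier3* was at 961 and 648 CPM in subcluster 1, where its log2 ratio was lowest, 0.57 (0.53 to 0.61), and between 0.71 and 1.27 in the others. Both genes were most abundant in subcluster 1 in each library, the subcluster with the larger share of FGF8 cells. With each subcluster weighted by its share of the UMIs of both libraries, an alternative added after the data were seen, the log2 ratio was 1.01 for *Fosl1* and 0.68 for *Ier3*, and only *Fosl1* stayed past the fold.

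The other members differed in how even they were across subclusters. *Jun* and *Junb* were higher with FGF8 in all 6 subclusters, with log2 ratios of 0.20 to 0.67 for *Jun* and 0.16 to 1.06 for *Junb*, lowest in subcluster 1 for both. *Jund* was lower in 5 of 6, at −0.51 (−0.56 to −0.46) in subcluster 1 and −0.17 in subcluster 0, and higher only in subcluster 6, at 0.35. *Egr1* had both directions: it was at 52.9 CPM with FGF8 and 93.4 with BSA in subcluster 1, a log2 ratio of −0.82 (−0.94 to −0.70), and at 213 and 153 CPM in subcluster 4, a log2 ratio of 0.48 (0.36 to 0.59). The *Egr1* level with FGF8 in subcluster 1 was the lowest of the 6, and in subcluster 4 the highest. With cells of both sexes together, *Fos* was within 0.10 of 0 in subclusters 1 and 3 and higher in 0, 4 and 6 (0.43 to 0.47). It was lower in subcluster 2 at −0.45, although there it was above 0 within each sex, at 0.36 (0.10 to 0.62) in female-called and 0.94 (0.16 to 1.83) in male-called cells. In subcluster 3 *Fos* was at −0.43 (−0.52 to −0.34) in female-called and 0.58 (0.45 to 0.70) in male-called cells. In the same order it was at −0.02 and 0.53 in subcluster 1, and at −0.18 and 1.09 in subcluster 0. Subcluster 4 had 0.72 and 1.90, and subcluster 6 had 0.50 and 0.61. *Fos* itself was most abundant in subcluster 3, at 957 CPM with FGF8 and 898 with BSA, against 186 and 135 in subcluster 0.

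**Figure D3:**
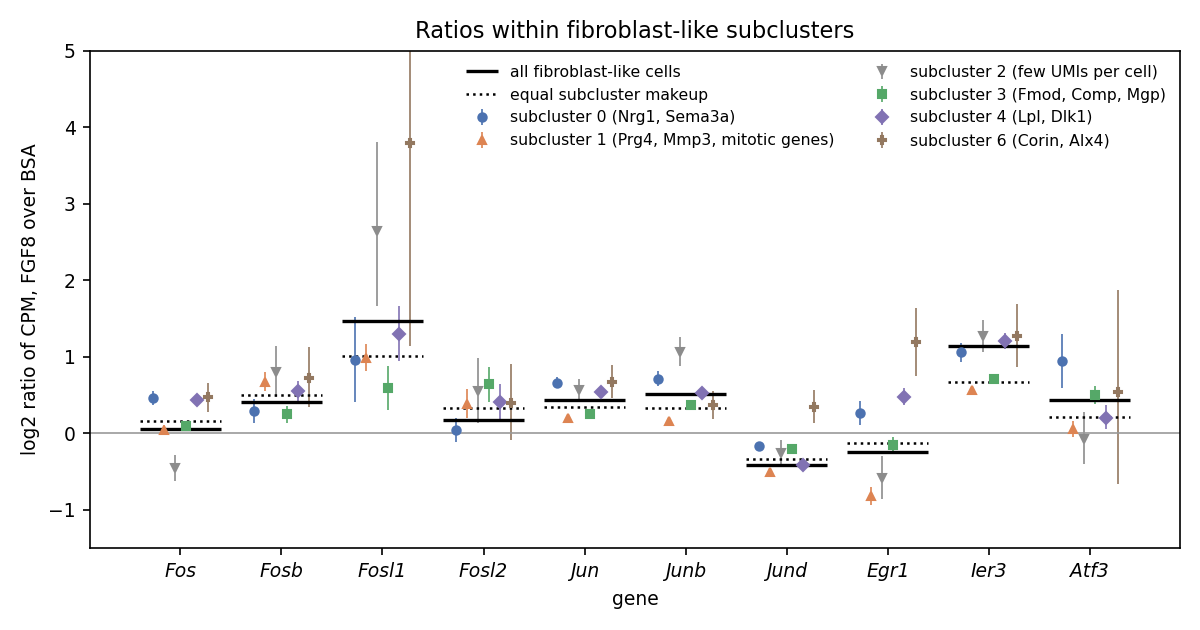
Log2 ratios of CPM, FGF8 over BSA, of each gene in 6 fibroblast-like subclusters (symbols with exact conditional 95% intervals, cut off at the top of the axis for *Fosl1* in subcluster 6), in all fibroblast-like cells (black line) and with subclusters weighted equally in both libraries (dotted line). All *Fosl1* and *Ier3* symbols lie above 0, *Egr1* symbols lie on both sides, and the dotted line of *Ier3* (0.68) lies under its black line (1.13).

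The ratios differed most between the sexes for *Fos*, *Fosb*, *Egr1* and *Atf3*, and less for other members. In fibroblast-like cells of the BSA library all 10 members were higher in female-called cells, and in the FGF8 library 5 were. Among fibroblast-like cells of the BSA library, *Fos* was at 457 CPM in 1199 female-called cells and 218 in 310 male-called cells, a log2 ratio female over male of 1.07 (0.99 to 1.15). *Fosb* was at 103 and 42.3 CPM there, a log2 ratio of 1.29 (1.11 to 1.47), *Egr1* at 111 and 73.9, and *Atf3* at 79.7 and 53.1. In the FGF8 library the same genes were nearly level between sexes, with *Fos* at 438 CPM in 702 female-called cells and 424 in 2157 male-called cells. The mice behind a sex within a pool are not known, so sex, individual and digit cannot be told apart.

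FGF8 over BSA, the log2 ratio of *Fos* was −0.06 (−0.11 to −0.02) in female-called and 0.96 (0.88 to 1.04) in male-called fibroblast-like cells. *Fosb* gave 0.26 and 1.45, *Atf3* 0.27 and 0.96, and *Egr1* −0.34 and 0.28. *Fosl1* was alike in both sexes, at 1.70 (1.53 to 1.87) and 1.66 (1.36 to 1.97), and *Ier3* was at 0.91 (0.87 to 0.95) and 1.31 (1.24 to 1.38). *Jund* was lower with FGF8 in both, at −0.51 and −0.29, and *Jun* and *Junb* were higher in both, at 0.38 and 0.56 in female-called and 0.68 and 0.67 in male-called cells. Members past the fold thus numbered 1 in female-called cells, where 6.50% of genes were, and 3 in male-called cells, where 6.33% were.

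**Figure D4:**
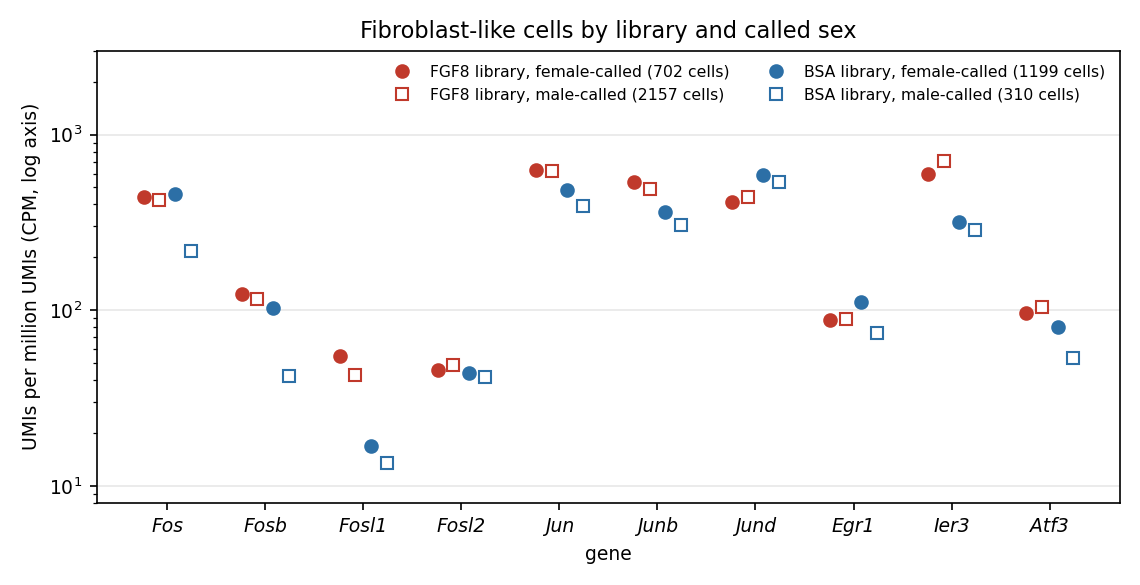
CPM (log axis) of each gene in fibroblast-like cells by library (red FGF8, blue BSA) and called sex (filled circles female, open squares male). The open blue squares of *Fos* (218) and *Fosb* (42.3) lie apart from the other 3 groups, whereas for *Fosl1* and *Ier3* both red symbols lie above both blue ones.

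Across the 10 named cell types the members differed widely in level. Neutrophil-like cells had the highest levels of *Fos* (2001 CPM with FGF8, 2200.0 with BSA), *Junb* (3737 and 4572), *Fosl2* (391.7 and 408.9) and *Atf3* (845 and 1309). Chondrocyte-like cells had the highest *Ier3*, at 3075 and 1377 CPM, above neutrophil-like cells at 1397 and 1075. Keratinocyte-like cells had the highest *Fosl1*, at 71.8 and 80.9 CPM, followed with FGF8 by fibroblast-like cells (45.6) and chondrocyte-like cells (41.3), and with BSA by chondrocyte-like cells (64.2). *Jun* was highest in endothelial-like cells with FGF8 (1156) and in mast-like cells with BSA (1480). Erythroid-like cells, whose UMIs are mostly globin, had the lowest *Fos* with both treatments, 50.2 and 209 CPM.

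With cells of both sexes together, most members were higher with FGF8 in endothelial-like cells and lower in chondrocyte-like cells, a difference that was not tested. In endothelial-like cells (140 FGF8 and 119 BSA cells) all 10 members were above 0, where 50.8% of 12247 genes were, and 7 above 1, where 5.67% were, and the median was 1.03. *Fos* was at 687 and 342 CPM, a log2 ratio of 1.01 (0.87 to 1.15), *Egr1* at 203 and 85.7, a ratio of 1.25 (0.98 to 1.52), and *Jun* at 1156 and 559, a ratio of 1.05 (0.94 to 1.16). *Fosl1* there rested on 29 and 3 UMIs, with a ratio of 3.005 (1.315 to 5.364). The endothelial-like values differed by sex: *Fos* was at 1.56, *Egr1* at 1.98, *Ier3* at 1.45 and *Atf3* at 2.57 in female-called cells (34 FGF8 and 82 BSA cells), but at 0.17, 0.24, 0.22 and 0.05 in male-called cells (78 and 14), where no member was above 1. In chondrocyte-like cells (134 and 54 cells) 1 of 10 was above 0, where 46.9% of 12007 genes were, and 2 were below −1, where 6.15% were. *Fos* was at 448 and 898 CPM, a ratio of −1.003 (−1.11 to −0.90), and *Atf3* at 61.9 and 144, a ratio of −1.214 (−1.498 to −0.932). The 1 member above 0 was *Ier3*, at 1.16 (1.09 to 1.23), and 10.6% of genes were above 1. *Ier3* was at 1.63 in female-called cells (40 and 39) and 0.17 (0.06 to 0.28) in male-called cells (79 and 11), *Jun* at −0.05 and −1.63, and *Fos* at −1.92 and −1.81. The globins and other erythroid markers summed to 10799.6 CPM with FGF8 and 2321 with BSA in endothelial-like cells, and to 2385 and 118 in chondrocyte-like cells, and their part in these ratios was not tested.

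In smooth muscle or pericyte-like cells all 10 members were above 0, where 52.7% of genes were, and 0 above 1, where 5.6% were, with *Ier3* highest at 0.71 (0.55 to 0.88). In female-called cells of that type *Fos* was at 1.38 and *Ier3* at 1.26, and in male-called cells at 0.48 and 0.72. In Schwann-like cells 8 of 10 were above 0, where 49.3% of genes were, *Ier3* was at 1.06 (0.84 to 1.28), and *Fosl1* rested on 11 and 2 UMIs, a ratio of 1.86 (−0.34 to 5.07). Here 5.15% of genes were above 1. In female-called Schwann-like cells (50 and 88) *Ier3* was at 0.36 and *Fos* at 0.00, and in male-called cells (154 and 18) they were at 2.36 and 2.30. In keratinocyte-like cells, where the BSA cells had a median of 4239.5 UMIs against 12499.5 with FGF8, 0 members were above 1, where 11.4% of genes were, and 0 below −1, where 4.66% were, and *Egr1* was lowest, at −0.96 (−1.13 to −0.80). The sexes went opposite ways there: *Fos* was at 1.33, *Fosb* at 1.31 and *Fosl1* at 1.98 in female-called cells (31 and 49), and at −1.35, −1.45 and −1.55 in male-called cells (136 and 18).

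In macrophage-like cells *Fosl1* was the 1 member above 1, where 9.01% of genes were, with 87 UMIs (8.47 CPM) and 18 UMIs (3.13 CPM), a ratio of 1.43 (0.69 to 2.25). *Fos* was at −0.33, *Fosb* at −0.48 and *Atf3* at −0.92 (−1.02 to −0.82) there, and *Ier3* at 0.43. Within a called sex *Fos* was at −0.11 in female-called (170 and 294) and 0.29 in male-called macrophage-like cells (485 and 72). *Atf3* was at −1.02 and −0.64 in these, and *Egr1* at −0.28 and 1.47. In neutrophil-like cells *Fosl1* had 26 UMIs and 1 UMI, a ratio of 3.37 (0.77 to 8.73), where 13.2% of genes were above 1, and *Fosb* was at −0.89. Fibroblast markers summed to 3024 CPM with FGF8 and 3151 with BSA in neutrophil-like cells, and to 1220 and 753 in macrophage-like cells. In fibroblast-like cells they summed to 12881 and 20994. What part of the *Fosl1* UMIs of neutrophil-like and macrophage-like cells came from other cells was not tested. Erythroid-like cells (615 and 83) had 6 of 10 below −1, where 17.3% of genes were, and 1 above 1, where 7.52% were. The median of all genes there was −0.30, and the cells had medians of 7010 UMIs with FGF8 and 18393 with BSA. Mast-like cells (64 and 41) had 9 members with enough UMIs. Of these 3 were below −1, where 9.92% of genes were, and 1 above 1, where 9.06% were. *Fosl1* had 2 UMIs and 0 there, too few for a ratio.

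**Figure D5:**
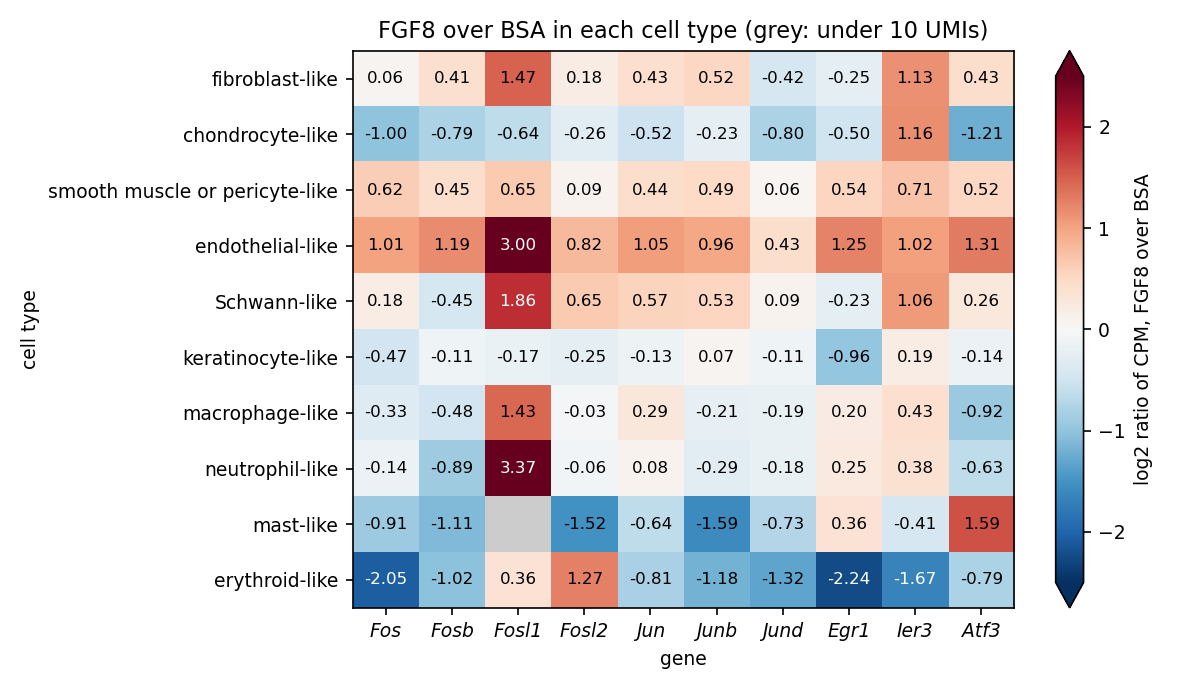
Log2 ratio of CPM, FGF8 over BSA, of each gene (columns) in each cell type (rows), red for higher with FGF8 and blue for lower; the color scale ends at the arrows, and the grey cell had under 10 UMIs. The *Ier3* column is above 0 except in mast-like and erythroid-like cells, and the endothelial-like row is above 0 throughout while the chondrocyte-like row is below 0 except for *Ier3*.

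Other genes of the pathway were read from lists, each described in fibroblast-like cells beside the median of all genes, −0.07. Of all genes there, 44.2% were above 0 and 6.70% above 1. Of 42 other immediate early genes 34 were above 0 and 6 above 1, with a median of 0.38. *Ptgs2*, which encodes the prostaglandin synthase COX-2, was at 60.0 CPM with FGF8 and 18.5 with BSA (1.70), *Nfkbia*, the NF-κB inhibitor, at 657 and 281 (1.23), and *Cebpd*, a bZIP factor of inflammation, at 134 and 59.3 (1.18). Lowest among those with at least 100 UMIs were *Klf2* (−0.73), *Rhob* (−0.44) and *Egr2* (−0.34). Of 12 genes that feed back on ERK signaling 9 were above 0 and 1 above 1, with a median of 0.35. *Etv4*, an ETS factor of FGF signaling, was at 20.6 and 4.68 CPM (2.14), and *Dusp5* was at 0.96 and *Dusp6* at 0.90, both ERK phosphatases. *Spry1* was at −0.44, *Etv1* at −0.24 and *Spred1* at −0.05.

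Of 23 genes of the MAP kinase cascade and its ternary complex factors 9 were above 0 and 0 above 1, with a median of −0.12. *Map2k3* was at 0.57, *Rps6ka1* at 0.51 and *Srf* at 0.36, and *Map2k6* at −0.85, *Mrtfb* at −0.56 and *Elk4* at −0.37. Of 11 other AP-1 family genes with enough UMIs 5 were above 0 and 0 above 1, with a median of −0.21. *Maff* was at 0.61, *Batf3* at 0.59 and *Batf2* at 0.52, and *Maf* at −0.62, *Jdp2* at −0.60 and *Atf7* at −0.52.

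Of 24 textbook targets of AP-1, 23 were above 0 and 16 above 1, against 44.2% and 6.70% of all genes, with a median of 1.55. *Mmp3* was at 643 CPM with FGF8 and 31.9 with BSA (4.33), and *Il11*, an interleukin 6 family cytokine, at 42.3 and 3.61 (3.55). *Mmp10*, another stromelysin, had 347 UMIs and 0. With the BSA cells set at 3 UMIs in all, it was 59.1-fold higher, a log2 ratio of 5.88 with a lower interval end of 5.58. *Col1a1*, the main collagen of scar and bone, was at 6233 and 13300.5 CPM (−1.09), and *Hmox1* (0.17) and *Ezr* (0.22) were next lowest. The study named *Mmp3*, *Mmp10*, *Spp1*, *Timp1* and *Cd44* of that list from these same libraries, so the list is no independent evidence of a direction. *Spp1*, which encodes osteopontin, was at 2593 and 508 CPM (2.35), and *Prg4*, which is on no list, at 2027 and 265 CPM (2.94).

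Heat shock genes are known to be raised by heat and by dissociation. In fibroblast-like cells 14 of 14 were above 0, where 44.2% of genes were, with a median of 0.64. *Hspd1* was at 295 and 127 CPM (1.22), *Hsp90aa1* at 643 and 295 (1.12) and *Hsph1* at 68.5 and 35.9 (0.93), whereas the stress-inducible *Hspa1b* was at 168 and 132 (0.35), *Dnajb1* at 0.39 and *Dnajb4* at 0.40. In endothelial-like cells 12 of 14 were above 0, where 50.8% of genes were, with a median of 0.24. In chondrocyte-like cells 2 of 14 were above 0, where 46.9% of genes were, with a median of −0.82. The part of heat shock or dissociation in the members' ratios was not tested.

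Across 15 types and subclusters in both libraries, 30 points that share libraries and differ in depth, each member was set against 10738 genes by Pearson's r of log2(CPM + 1), as a description. *Junb* was most like *Zfp36* (0.97) and *Csrnp1* (0.95), and *Fosl2* most like *Marchf7* (0.95). *Jun* was most like *Nup210l* (0.93), followed by *Hsp90aa1* (0.88), and *Jund* most like *Ube2b* (0.92). *Ier3* was most like *Slc2a1*, the glucose transporter GLUT1 (0.91), *Bhlhe40* (0.85) and *Ptgs2* (0.84). *Fosb* was most like *Zbtb11* (0.87) and *Ier2* (0.86), *Egr1* most like *Ier2* (0.80), and *Atf3* most like *Map3k8* (0.85). *Fosl1* was most like *Cemip* (0.81), *Slc38a4* (0.80) and *Barx2* (0.80), and its r with the other members was 0.04 to 0.51, while *Fos* with *Junb* had 0.84 and *Fosb* with *Junb* 0.85.

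Within fibroblast-like cells, each thinned to 5000 UMIs (2929 FGF8 and 1503 BSA cells), the members were found together to different degrees. Spearman's rho was 0.56 for *Junb* with *Ier3* with FGF8 and 0.49 with BSA, 0.52 and 0.56 for *Fos* with *Junb*, and 0.50 and 0.54 for *Fos* with *Fosb*. *Fosl2* and *Jund* went less with *Fos*, at 0.08 and −0.02 for *Fosl2* and 0.15 and 0.20 for *Jund*. *Fosl1* was sparse, and its highest rho was with *Ier3*, 0.26 and 0.23. *Ier3* with *Prg4* had 0.38 and 0.26, and *Fos* with *Prg4* 0.10 and 0.18. Cells of 1 library are not replicates, and these values describe the libraries.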

How the data were processed

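Single-cell transcriptomes were measured in 2 libraries, 1 per condition. The authors deposited raw UMI counts per gene and barcode, made with Cell Ranger 9.0.0 on a GRCm39 reference. As in the study's methods, barcodes were kept that had over 200 and under 7500 genes and less than 15% mitochondrial UMIs. Cells were clustered with Seurat 5.3.0 (SCTransform, CCA integration, 30 components, resolution 0.05, seed 42) without the listed genes and the X- and Y-linked genes as features, and the fibroblast-like cluster again at 0.2. A keratinocyte-like subcluster was then set apart, a choice made after the clusters were seen. Scrublet called 0 doublets in either library and so did not work, and removing the cells with the highest scores was an alternative. For each cell type of a library its UMIs were summed, and a gene at 0 UMIs in 1 library entered at a floor of 3. Intervals (95%) are exact conditional, Poisson or binomial ones. No test was run, since each condition was 1 library. All 10 members are named, and from each other list, of the genes reaching 100 UMIs, the 3 with the highest and the 3 with the lowest ratio. The members and lists were chosen with earlier results of these data known. The ratio and interval script was tested on simulated data. The gene most like *Fos* across cell types is not reported here.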

Additional observations from a re-analysis of the deposited data

Results flagged for a closer look

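None of the differences below was tested, since each condition was 1 library. The values are log2 ratios of CPM, FGF8 over BSA. *Fos* was at 1.01 in endothelial-like cells, −1.003 in chondrocyte-like cells and −2.05 in erythroid-like cells. *Fosb* was at 1.19 in endothelial-like cells, −1.02 in erythroid-like cells and −1.11 in mast-like cells. *Egr1* was at 1.25 in endothelial-like and −2.24 in erythroid-like cells. *Atf3* was at 1.31 in endothelial-like and −1.21 in chondrocyte-like cells. *Ier3* was at 1.13 in fibroblast-like, 1.06 in Schwann-like, 1.16 in chondrocyte-like and 1.02 in endothelial-like cells, and at −1.67 in erythroid-like cells, where the BSA library had 83 cells. Within a called sex *Ier3* was as low as 0.36 in Schwann-like (female-called), 0.17 in chondrocyte-like (male-called) and 0.22 in endothelial-like cells (male-called), and *Fos* in endothelial-like cells was at 0.17 (male-called).

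Between the sexes, *Fos* was at −0.062 in female-called and 0.96 in male-called fibroblast-like cells, and at −0.11 and 0.29 in macrophage-like cells. *Egr1* was at −0.34 in female-called and 0.28 in male-called fibroblast-like cells. In keratinocyte-like cells 7 members had counting intervals wholly above 0 in female-called and wholly below 0 in male-called cells, of which the BSA library had 18: *Fos* at 1.33 and −1.35, *Fosb* at 1.31 and −1.45, *Fosl1* at 1.98 and −1.55, *Atf3* at 1.39 and −0.33, *Jun* at 0.87 and −0.42, *Junb* at 0.64 and −0.26, and *Jund* at 0.28 and −0.50. *Fosb* was at −1.59 in female-called and 1.70 in male-called Schwann-like cells, where the BSA library also had 18 male-called cells. In the types with the fewest male-called BSA cells, *Fos* was at −0.88 and 1.98 and *Junb* at −1.04 and 1.80 in erythroid-like cells (3 cells, 0 *Junb* UMIs set at 3), and *Egr1* was at −2.95 and 2.63 in mast-like cells (4 cells).

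Barcodes outside the filters, 534 with FGF8 and 451 with BSA, entered none of the main comparisons, and only the alternative on all barcodes used them. In them *Fosl1* was at 52.6 and 15.9 CPM, a log2 ratio of 1.72, and *Ier3* at 641 and 264 CPM, a log2 ratio of 1.28.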

How the results depend on the processing

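In fibroblast-like cells 20 alternatives were run, 3 of them (whole cluster, without the subcluster with few UMIs, equal subcluster makeup) chosen after seeing the data. No member was below −1 in any of them, and 7 to 9 of 10 were above 0. The 2 members above 1 became 0 at clustering resolutions 0.1 and 0.2 and with the fold that adds 1 to each mean. They became 1 in female-called cells and with equal subcluster makeup. At the finer resolutions the *Prg4*-led cluster and a cluster of few UMIs carried no name and did not count as fibroblast-like. The median of the members, 0.42, was 0.35 with stricter cell filters, 0.69 with types called per cell on all barcodes and 0.52 on kept cells. It was 0.35 without integration, 0.49 and 0.51 at resolutions 0.1 and 0.2, 0.47 with cells weighted equally and 0.49 after centring on all genes. It was 0.27 (female-called) and 0.82 (male-called), 0.26 with 1 added to each mean, 0.35 for the whole cluster and 0.33 with equal makeup. Genes past the fold, 11.8%, were 0.055% with 1 added to each mean and 5.46% at a minimum of 100 UMIs. The cause was not tested where no construction shows it. *Fosl1* ranged from 0.31 to 1.92, *Ier3* from 0.68 to 1.72, *Jund* from −0.51 to −0.23 and *Egr1* from −0.34 to 0.48.

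In fibroblast-like cells *Egr1* was above 0 in 8 of the 18 alternatives that could move a ratio, and *Fos*, at 0.06, was at −0.062 in female-called cells. Of the ratios past the fold with at least 10 UMIs in each library, those that changed sign were in erythroid-like and mast-like cells. Ratios on fewer UMIs, such as *Fosl1* in endothelial-like, Schwann-like and neutrophil-like cells, were not put through the alternatives. In erythroid-like cells *Fosb* was at 1.17 (types per cell, all barcodes), 0.59 (types per cell), 0.32 (female-called), 1.71 (male-called) and 0.20 (highest doublet scores removed), *Junb* at 0.15 (all barcodes) and at least 1.80 (male-called, 0 BSA UMIs), *Ier3* at 0.0018 and 1.39, and *Fos* at 1.98 (male-called). In mast-like cells *Fosb* was at 0.080 with cells weighted equally and 0.050 with 1 added to each mean. No paired analysis was possible because each condition was 1 library, and leaving out a library was not possible for the same reason.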
